A study of Arabidopsis thaliana with 6 samples.

Results

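The Arabidopsis genes annotated for disease resistance, most of which encode NLR immune receptors, were compared between the toc1-21 prr5-1 double mutant and the Col-0 accession. Members were the loci whose deposited UniProt description holds the words disease resistance. These were 170 of the 33602 loci in the files, and all 170 were found in the RefSeq annotation of the TAIR10.1 genome. RNA came from whole seedlings, 10 days old, grown at 22 °C in long days on MS medium with 3% sucrose and harvested at ZT15 (lights came on 15 h earlier). The toc1-21 prr5-1 seedlings carry mutant alleles of TOC1 and PRR5, clock genes for pseudo-response regulators. Col-0 is the wild-type accession. Each genotype had 3 libraries, called biological replicates by the series' design text. No source used here says how the replicates were separated, and p-values therefore reflect only the spread among these libraries, which may be technical. Nor do the sources name the accession in which each mutant allele arose, or any backcrossing.

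NLRs are intracellular receptors with a nucleotide-binding domain and leucine-rich repeats. They detect pathogen effectors, either directly or by guarding a host protein, and start a defence response that can end in cell death. The N-terminal part sorts them into TIR receptors, which carry a Toll/interleukin-like domain and signal through EDS1 and helper NLRs, and CC receptors, which carry a coiled coil. Their genes often stand in tandem clusters of related copies. RPP genes of Arabidopsis were named for resistance to downy mildew, and RPM and RPS genes for resistance to Pseudomonas syringae.

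The label of NLR genes held for most members and not for all. By RefSeq product names, 61 members encode TIR-NBS-LRR proteins, 9 shorter TIR-NBS proteins without named repeats, 25 CC-NBS-LRR proteins and 24 other NB-ARC proteins. A further 27 carry another product name and 14 have none. The last 10 are ENHANCED DISEASE RESISTANCE 2 and its relatives, which are not NLRs and entered through the wording of their descriptions. Conversely, 7 of 30 well-studied receptors (RPP2A, RPP4, RPP5, SNC1, LOV1, SOC3 and CHS3) carry other descriptions and are not members. The P-loop, the stretch of the nucleotide-binding domain that holds the phosphates of ATP, gave a check on the sequences themselves. A glycine, 4 further residues, a second glycine, lysine and then threonine or serine were found in the longest coding sequence of 128 of 156 protein-coding members, against 4.99% of the 26712 coding genes of the annotation. It was found in 9 of the 10 members called below (not in AT1G72890) and in 1 of the 10 ENHANCED DISEASE RESISTANCE 2 genes.

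The stretches below let the copies of the RPP1 cluster, the RPP2 cluster, AT4G36150, the CC receptor AT5G63020 and the abundant CC receptor RPP8 be compared. Each is 60 bases of coding sequence from RefSeq TAIR10.1, 5′ to 3′, with the 24 bases of the P-loop codons in capitals.
RPP1, chr3:16094890-16094949, minus strand: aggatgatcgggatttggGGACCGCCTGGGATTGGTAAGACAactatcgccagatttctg
AT3G44670, chr3:16218348-16218407, plus strand: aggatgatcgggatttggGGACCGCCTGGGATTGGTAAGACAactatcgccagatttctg
AT3G44630, chr3:16197372-16197431, plus strand: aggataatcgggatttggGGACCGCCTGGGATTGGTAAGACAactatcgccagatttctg
AT3G44400, chr3:16048778-16048837, minus strand: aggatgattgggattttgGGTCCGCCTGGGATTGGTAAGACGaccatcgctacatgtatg
RPP2B, chr4:10634588-10634647, plus strand: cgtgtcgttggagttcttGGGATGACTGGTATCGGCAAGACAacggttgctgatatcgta
AT4G19530, chr4:10653924-10653983, plus strand: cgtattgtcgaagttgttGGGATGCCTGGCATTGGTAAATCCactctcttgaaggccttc
AT4G36150, chr4:17105579-17105638, plus strand: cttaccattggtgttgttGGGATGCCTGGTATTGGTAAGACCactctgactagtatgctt
AT5G63020, chr5:25285421-25285480, minus strand: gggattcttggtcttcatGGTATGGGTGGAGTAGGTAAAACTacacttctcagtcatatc
RPP8, chr5:17466044-17466103, minus strand: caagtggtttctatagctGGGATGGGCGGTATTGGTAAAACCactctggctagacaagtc
The RPP1 and AT3G44670 stretches were identical over all 60 bases, and AT3G44630 differed from both at 1 base. AT3G44400, another gene of that cluster, differed from RPP1 and AT3G44670 at 9 bases and from AT3G44630 at 10. Over the aligned coding sequence these 4 genes were 88.8% to 93.3% identical. Reads from near-identical copies could have been assigned to either copy, since the sources do not say how reads with several matches were treated. Of the 50-base stretches in the exons of RPP1, 55.7% occur once in the genome, against 63.4% for AT3G44670, 71.8% for AT3G44630 and 82.8% for AT3G44400. Values of these 4 genes are therefore uncertain as to which copy they belong to. The other 7 members called below were unique over 100% of such stretches. AT1G58807 and AT1G58848, a pair of members that were not called, were unique over 0% and 0.709%. Further members that were not called, such as RPP8 at 80.2%, were also unique over less than 100%.

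Libraries rested on 14617043 to 26792712 reads. TOC1 and PRR5 were both lower in the mutant. TOC1 had 16.8 ± 1.91 RPKM in the mutant and 33.6 ± 1.49 RPKM in Col-0 (SD, n = 3 each), and PRR5 had 1.12 ± 0.216 RPKM in the mutant and 2.94 ± 0.0664 RPKM in Col-0 (SD, n = 3 each). PIF4 and PIF5, named as repressed targets in the series title, were both higher in the mutant. Markers of shoot and root were present in both genotypes. Of 4 shoot mesophyll markers 3 were called higher in the mutant, no root marker of 4 was called, and 3 of 4 seed storage markers were called lower. The seed markers summed to 278.5 to 335.1 RPKM in the mutant and to 542.6 to 682.9 RPKM in Col-0, and their part in the results below was not tested. In whole seedlings, fewer cells of a type and less RNA per cell cannot be told apart.

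Most disease resistance genes had mean levels within 2-fold of each other in the genotypes, and the few that were called were all lower in the mutant. RPKM is the number of reads scaled to gene length and library depth. Of 170 members, 15 were at 0 in all 6 libraries and 102 reached 1 RPKM in at least 3 libraries and were tested, while 68 were not tested. Called means an adjusted p under 0.05 in limma on log2(RPKM + 1), with Benjamini-Hochberg adjustment over all 19710 genes tested. Of the 102, 10 were called lower in the mutant and 0 were called higher. Over all genes tested, 10.6% were called in either direction, 6.65% lower and 3.9% higher. The 9.80% of tested members that were called, all lower, is near the share called in either direction. At an unadjusted p under 0.05, limma gave 12 members lower and 5 higher, against 13.3% and 9.07% of all tested genes. Limma-voom on reads recovered from the RPKM values called 12 lower and 1 higher, against 7.12% and 4.21%. The median log2 fold change, mutant over Col-0, was -0.03 over tested members and -0.01 over all tested genes. Fold changes on this scale understate the change of low genes.

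**Figure D1:**
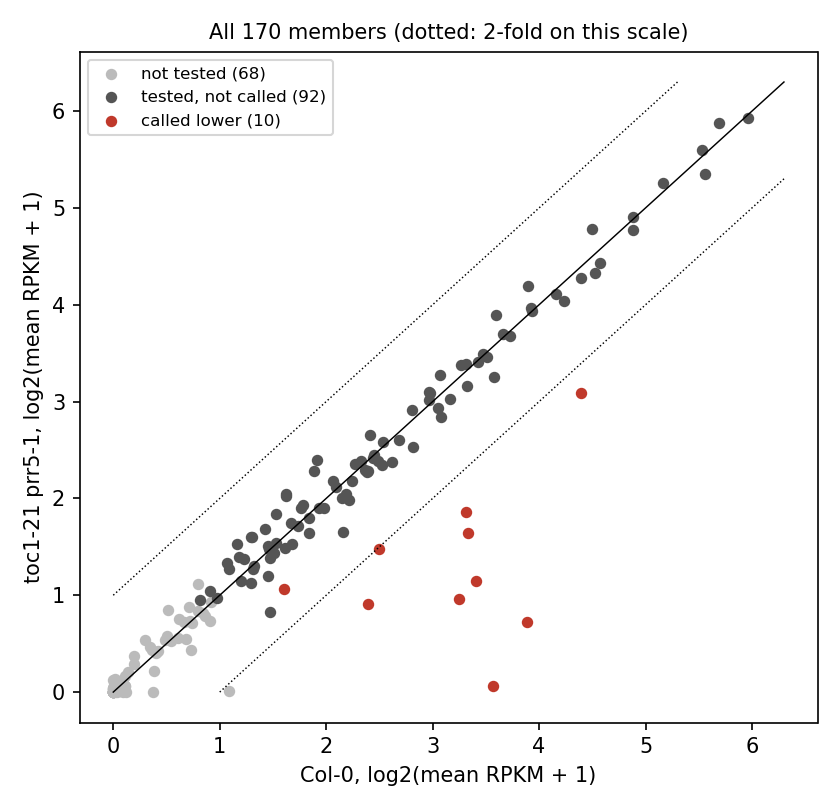
Each of the 170 members is a point, with log2(mean RPKM + 1) of toc1-21 prr5-1 on the vertical axis and of Col-0 on the horizontal axis (3 libraries each). The 10 members called lower lie below the diagonal, and most of the 92 tested members that were not called lie close to it. AT3G03855, not called, lies farther below it (log2 fold change -0.62) than AT4G36150, which was called (-0.54).

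Counted by level rather than by test, 2 members were lost in the mutant and 0 were gained. Lost means at least 1 RPKM in every Col-0 library and, in every mutant library, at most 10% of the lowest Col-0 library, and gained is the converse. The 2 lost genes stood among 95 members present in Col-0, and 0.344% of all genes present in Col-0 were lost. Of genes present in the mutant, 0.0743% were gained over all genes. Among 99 members present in either genotype, 89 had mean levels within 2-fold of each other, against 95.5% of all such genes. By complete separation of the libraries, 15 tested members had all mutant values below all Col-0 values and 12 had them all above, against 15.4% and 11.6% of all tested genes. Members called lower were picked by their difference, so separation given for them below is no further support.

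The lost TIR receptor gene was RPP2B (AT4G19510, chromosome 4, 10633619 to 10639036, TAIR10.1), which acts together with RPP2A in resistance to downy mildew. RPP2B had 0.0661, 0.0170 and 0.0458 RPKM in mutant replicates 1 to 3, against 11.1, 8.48 and 13.1 RPKM in Col-0 replicates 1 to 3. The mutant values stand for 6, 2 and 4 reads and the Col-0 values for 709, 602 and 1273 reads. All 3 mutant libraries were close to 0, and the genotypes were far apart. Here and below, RPKM counts the reads assigned to the reference copy of a gene, so in these files a transcript made at a lower level and one whose reads did not match the reference cannot be told apart. The log2 fold change was -3.49 ± 0.17 (SE, limma adjusted p = 1.37e-06), and the highest mutant value was 0.779% of the lowest Col-0 value. RPP2B passed the filter for testing through its Col-0 libraries alone, the genotype where it is high, so its p-value is no independent support.

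RPP2A, the partner gene next to it, is no member by its description and was lost too. RPP2A had 0.0533, 0.0330 and 0.111 RPKM in the mutant libraries, against 21.6, 16.3 and 24.4 RPKM in the Col-0 libraries (log2 fold change -4.33, limma adjusted p = 2.22e-07). Both genes of the pair were therefore close to 0 in every mutant library. RPP2A, too, passed the filter for testing through its Col-0 libraries alone. On the far side of RPP2B stand the TIR receptor genes AT4G19520 and AT4G19530, which were lower but still expressed. AT4G19520 had 2.02, 1.61 and 1.75 RPKM in the mutant, against 4.51, 3.93 and 5.51 RPKM in Col-0 (log2 fold change -1.01 ± 0.15, SE, limma adjusted p = 0.00194). AT4G19530 had 7.98, 6.84 and 7.73 RPKM in the mutant, against 19.5, 17.4 and 23.4 RPKM in Col-0 (log2 fold change -1.3 ± 0.12, SE, limma adjusted p = 0.000104). Neither gene's genotypes overlapped, and the mutant means were 38.6% of the Col-0 mean for AT4G19520 and 37.4% for AT4G19530. The drop in this stretch was not limited to receptor genes. VPS54, a vacuolar sorting gene next to RPP2A, had 8.46 ± 0.327 RPKM in the mutant and 20.7 ± 0.202 RPKM in Col-0 (SD, n = 3 each, limma adjusted p = 2.04e-05). AT4G19450, which is no member, was called lower too (limma adjusted p = 5.69e-05). AT4G19460, INDH and AT4G19550 were not called. Unlike the RPP1 copies, RPP2B and AT4G19530 were only 61% identical over their aligned coding sequence.

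The other lost member was a CC receptor gene, AT5G63020 (chromosome 5, 25283063 to 25286121, TAIR10.1). Its levels were 0.709, 0.627 and 0.632 RPKM in the mutant, against 13.2, 13.7 and 14.3 RPKM in Col-0. Values within each genotype were close together, and the mutant kept 4.77% of the Col-0 mean. The log2 fold change was -3.15 ± 0.12 (SE, limma adjusted p = 2.25e-07). This gene also passed the filter for testing through its Col-0 libraries alone. It was the single CC-NBS-LRR member called, of 19 tested.

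The RPP1 cluster on chromosome 3 held 3 called members. RPP1 (AT3G44480, 16090460 to 16096477), a TIR-NBS-LRR gene, had 2.94, 2.78 and 2.15 RPKM in the mutant, against 9.22, 7.51 and 10.2 RPKM in Col-0. AT3G44630 (16195848 to 16201225) had 1.18, 0.794 and 0.862 RPKM in the mutant, against 8.33, 6.74 and 10.5 RPKM in Col-0. AT3G44670 (16216806 to 16221722) had 1.14, 1.54 and 0.954 RPKM in the mutant, against 9.61, 6.93 and 12.3 RPKM in Col-0. None of the 3 genes overlapped between genotypes, as is likely for genes picked by their call. Their log2 fold changes were -1.46 for RPP1 (limma adjusted p = 0.000154), -2.28 for AT3G44630 (limma adjusted p = 2.15e-05) and -2.24 for AT3G44670 (limma adjusted p = 5.82e-05).

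AT3G44400, the related gene that precedes RPP1 in locus order, was not called. It had 2.63, 2.65 and 2.47 RPKM in the mutant, against 2.23, 2.06 and 1.35 RPKM in Col-0, with every mutant value above every Col-0 value (log2 fold change 0.33, limma adjusted p = 0.277). Since the 4 copies share sequence, their values are not independent of one another.

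Promoter windows, from 250 bases before to 50 bases after the annotated start, were read for the called members from RefSeq TAIR10.1. That of RPP2B is shown because the gene was lost. Capitals mark the W-box core, TTGAC on either strand, which WRKY factors of the defence response bind.
RPP2B, chr4:10633369-10633668, plus strand: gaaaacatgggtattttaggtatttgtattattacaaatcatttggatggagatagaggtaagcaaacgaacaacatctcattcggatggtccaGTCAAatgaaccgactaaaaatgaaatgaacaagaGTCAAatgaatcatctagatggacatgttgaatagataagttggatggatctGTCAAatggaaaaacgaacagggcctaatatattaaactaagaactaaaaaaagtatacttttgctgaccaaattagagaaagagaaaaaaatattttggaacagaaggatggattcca
The RPP2B window holds 3 cores. A W-box core was found in 6 of 10 called members, in 66.0% of protein-coding members and in 50.5% of all protein-coding genes. The G-box CACGTG, a site of bHLH factors such as PIF4 and PIF5, was in 0 of 10 called members, 3.21% of members and 7.79% of all protein-coding genes. The evening element AAAATATCT, a site of clock MYB factors, was in 0 of 10, in 0.641% of members and in 2.86% of all. A match says only that the letters stand in this window.

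Besides AT5G63020, the called members outside these clusters were AT1G72890, AT3G04210 and AT4G36150. By RefSeq product name, AT1G72890 and AT3G04210 encode TIR-NBS proteins, the short class, in which 2 of 6 tested members were called. The P-loop was not found in the longest coding sequence of AT1G72890. AT1G72890 had 2.30, 2.28 and 1.82 RPKM in the mutant, against 9.92, 7.65 and 9.72 RPKM in Col-0 (log2 fold change -1.69, limma adjusted p = 4.17e-05). AT3G04210 had 1.07, 0.750 and 0.801 RPKM in the mutant, against 4.34, 4.2 and 4.25 RPKM in Col-0 (log2 fold change -1.49, limma adjusted p = 0.000111). Neither gene's genotypes overlapped, and the Col-0 mean was 4.27 times the mutant mean for AT1G72890 and 4.88 times for AT3G04210.

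AT4G36150, a TIR-NBS-LRR gene, was the smallest of the 10 changes. It had 1.14, 1.06 and 1.06 RPKM in the mutant, against 1.997, 2.08 and 2.03 RPKM in Col-0 (log2 fold change -0.54, limma adjusted p = 0.0428). The values did not overlap, but this call was lost when any of the 6 libraries was left out, with adjusted p up to 0.134. Its direct neighbour AT4G36140, a TIR-NBS-LRR gene described as a WRKY factor and so no member, had 0.0427 ± 0.00336 RPKM in the mutant and 5.27 ± 0.589 RPKM in Col-0 (SD, n = 3 each).

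Near the limit for lost, the highest mutant value was 5.36% of the lowest Col-0 value for AT5G63020, just inside, and 17.5% for AT3G44630, 22.2% for AT3G44670 and 25.4% for AT3G04210, just outside. AT1G15890, a CC-NBS-LRR gene, was singled out after its values were seen. It had 0.0166, 0.0128 and 0 RPKM in the mutant, against 1.04, 1.38 and 0.977 RPKM in Col-0, and was neither tested nor counted as lost because the third Col-0 library fell under 1 RPKM. The Col-0 values stand for 44, 65 and 63 reads and the mutant values for 1, 1 and 0.

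**Figure D2:**
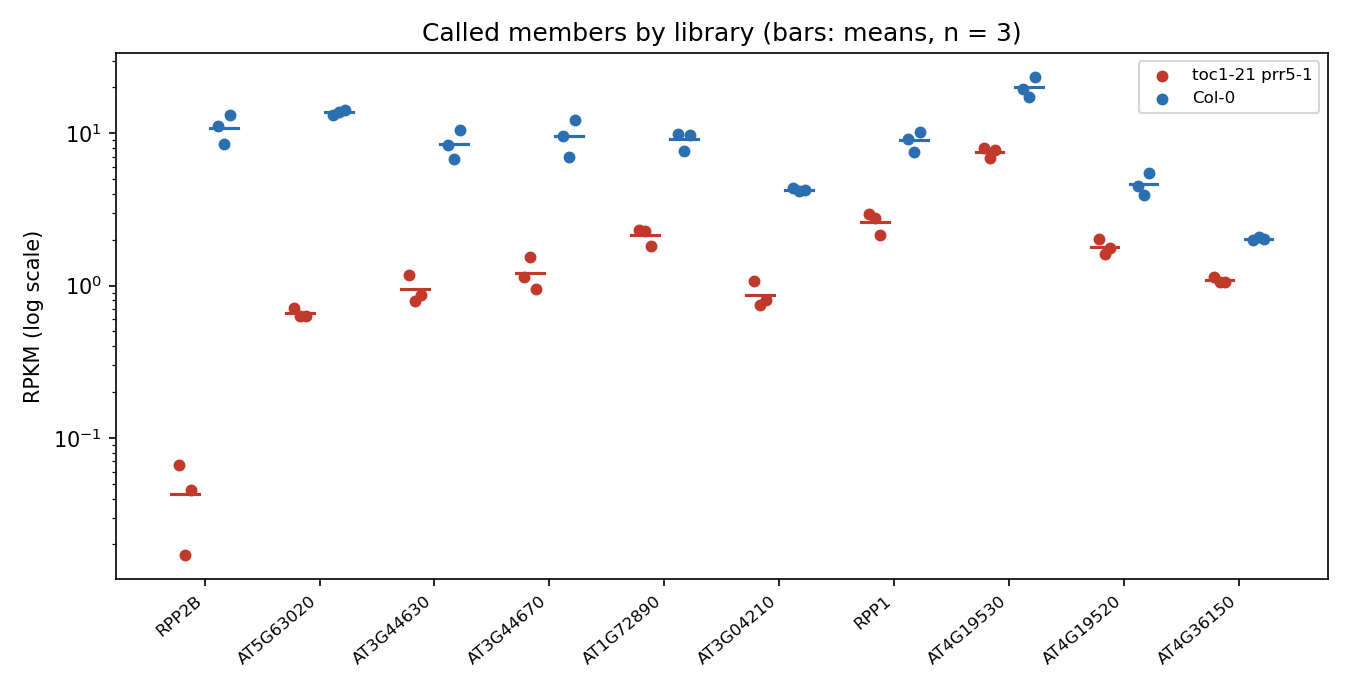
RPKM on a log axis for the 10 members called lower, with 3 toc1-21 prr5-1 libraries left and 3 Col-0 libraries right for each gene and a bar at each mean. No gene's libraries overlap between the genotypes, which is likely for genes picked by their call and is no further support. Over all tested genes, 15.4% had all mutant values below all Col-0 values. RPP2B lies under 0.1 RPKM in all 3 mutant libraries.

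Of the 30 well-studied receptors, 29 were tested, 6 were called lower and 1 higher, which is 24.1% against 10.6% of all tested genes. The lower ones were RPP1, RPP2A, RPP2B, RPP4, RPP5 and SNC1 and the higher one LOV1, and only RPP1 and RPP2B of these are members. RPP2A and RPP2B share 1 cluster, and RPP4, RPP5 and SNC1 share another, so this share does not count independent genes. The list was also chosen with earlier results of these data known. Among the 23 that are members, 22 were tested and 2 were called, near the share over all genes. The bacterial resistance genes RPM1, RPS2, RPS4 and RPS6 were not called. RPS2 had 4.46, 3.43 and 3.78 RPKM in the mutant, against 4.26, 3.84 and 4.35 RPKM in Col-0, and the genotypes overlapped. RPS4 had 8.86, 8.16 and 9.08 RPKM in the mutant, against 7.38, 6.77 and 7.96 RPKM in Col-0, with the mutant values above Col-0 but no call (log2 fold change 0.21, limma adjusted p = 0.29). RRS1, which works with RPS4 as a pair, had 4.45 ± 0.631 RPKM in the mutant and 4.45 ± 0.432 RPKM in Col-0 (SD, n = 3 each). ZAR1, the CC receptor that forms the resistosome, had 18.4 ± 0.139 RPKM in the mutant and 19.985 ± 1.3 RPKM in Col-0 (SD, n = 3 each).

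The helper NLRs, which carry the signal of many sensors, were not called by limma on log2(RPKM + 1). ADR1 had 1.95, 2.59 and 1.90 RPKM in the mutant, against 4.23, 3.16 and 3.04 RPKM in Col-0, which did not overlap (log2 fold change -0.51, limma adjusted p = 0.0824). Limma-voom on recovered reads did call ADR1. ADR1-L1 had 16.2 ± 1.08 RPKM in the mutant and 16.8 ± 1.41 RPKM in Col-0, and ADR1-L2 had 15.4 ± 0.528 RPKM in the mutant and 17.8 ± 0.987 RPKM in Col-0 (SD, n = 3 each). NRG1.1 had 9.47 ± 1.77 RPKM in the mutant and 8.92 ± 0.843 RPKM in Col-0, and NRG1.2 had 4.79 ± 0.545 RPKM in the mutant and 6.03 ± 1.16 RPKM in Col-0 (SD, n = 3 each). CHS1, a TIR-NBS gene known for chilling sensitivity, was under the filter, with 1.16 ± 0.192 RPKM in the mutant and 0.731 ± 0.159 RPKM in Col-0 (SD, n = 3 each).

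The 5 most abundant members were not called either. AT5G45490 had 61.8, 61.7 and 56.1 RPKM in the mutant, against 56.4, 66.7 and 60.4 RPKM in Col-0, the highest mean of all members. AT5G45510 followed with 57.8 ± 4.10 RPKM in the mutant and 50.6 ± 4.57 RPKM in Col-0, and the RPP8 relative AT5G48620 with 47.5 ± 2.67 RPKM in the mutant and 45.2 ± 9.95 RPKM in Col-0 (SD, n = 3 each). RPP7, a downy mildew receptor, had 42.3, 40.6 and 36.8 RPKM in the mutant, against 42.1, 38.8 and 57.3 RPKM in Col-0. RPP8 had 39.2, 37.2 and 35.6 RPKM in the mutant, against 35.0, 29.3 and 40.1 RPKM in Col-0. The genotypes overlapped in all 5. For RPP8 the 95% interval of the log2 fold change ran from -0.15 to 0.36, and for RPP7 from -0.49 to 0.12. Of the 50-base stretches in their exons, 80.2% for RPP8, 85.4% for RPP7 and 86.4% for AT5G48620 occur once in the genome. Values of these 3 genes are therefore also uncertain as to which copy they belong to.

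By class, 7 of 35 tested TIR-NBS-LRR members were called lower, 2 of 6 TIR-NBS, 1 of 19 CC-NBS-LRR, 0 of 15 NB-ARC, 0 of 12 with another product, 0 of 6 without a product and 0 of 9 of the ENHANCED DISEASE RESISTANCE 2 group. Over all tested genes 6.65% were called lower, so counts of 0 or 1 in classes of 6 to 19 tested genes show nothing particular to them. Among members with another product or none, medians of the log2 fold change were 0.05 and -0.11. Copies in 1 cluster share sequence and place, so these shares do not count independent genes, and the differences between classes were not tested.

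Called members were unevenly spread over the chromosomes. Chromosome 3 had 4 of 13 tested members called lower, and chromosome 4 also had 4, of 12, and 1 lost. Chromosome 1 had 1 of 33, chromosome 2 had 0 of 2 and chromosome 5 had 1 of 42, and that 1 was also lost. Over all genes, 10.3% of those tested on chromosome 3 and 8.53% on chromosome 4 were called lower, against 6.35%, 4.63% and 4.10% on chromosomes 1, 2 and 5. Of the 8 called members on chromosomes 3 and 4, 6 belong to the RPP1 and RPP2 clusters. Chromosome 5 holds 61 members, more than any other chromosome.

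**Figure D3:**
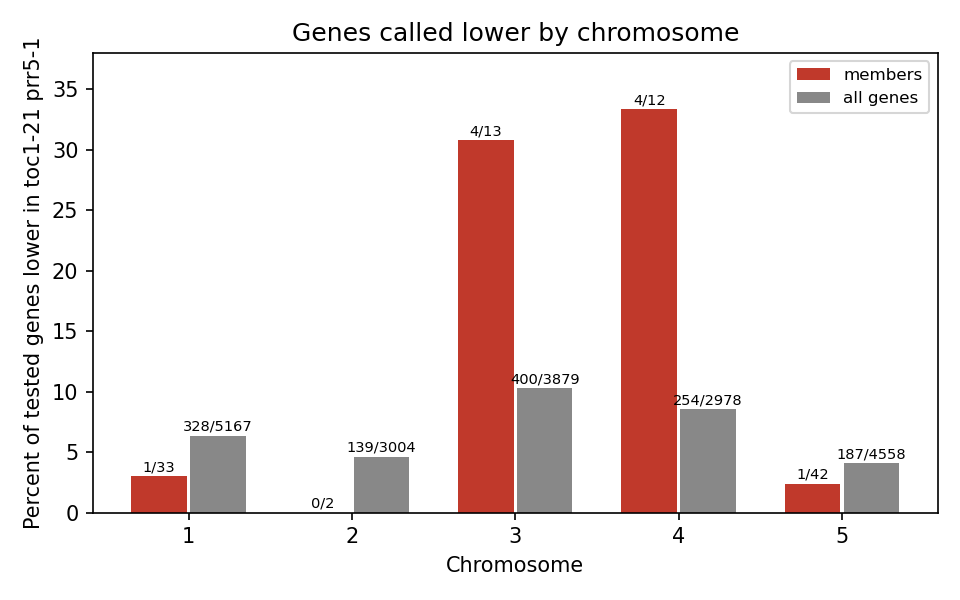
Percent of tested genes called lower in toc1-21 prr5-1 on each chromosome, for members (left bar) and all genes (right bar), with called over tested above each bar. Members reach 30.8% on chromosome 3 and 33.3% on chromosome 4, from 13 and 12 tested genes.

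Genes that are no members but stand near called members were often called too. For each tested member, the 20 nearest tested other genes on each side in locus order were counted, receptor genes that are no members included. Around the 10 called members a median of 32.5% of these neighbours were called (range 2.5% to 52.5%), against 6.25% around the 92 tested members that were not called (range 0% to 40%). Around 7 of the 10 and around 10 of the 92 at least 25% of neighbours were called. AT3G04210 had the lowest share of the 10, with 2.5%. Neighbourhoods of members in 1 cluster are largely the same genes, and the part of the surrounding stretch in the members' calls was not tested.

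Around RPP1, 17 of the 18 called neighbours, among 40 counted, were lower. Calls were more often lower elsewhere too. Over all tested genes 6.65% were called lower and 3.9% higher, and on chromosome 3 10.3% lower and 4.05% higher. AT3G44590, which encodes an acidic ribosomal protein P2 and lies between RPP1 and AT3G44630, had 3.67, 4.04 and 3.96 RPKM in the mutant, against 101.6, 133.2 and 91.0 RPKM in Col-0 (log2 fold change -4.47, limma adjusted p = 6.68e-08). AT3G44420 was listed at 0 in all 3 mutant libraries, against 3.37, 4.06 and 2.22 RPKM in Col-0. Near AT5G63020, FOLB2, a dihydroneopterin aldolase of folate synthesis, was lost with 1.11 ± 0.566 RPKM in the mutant and 20.7 ± 2.68 RPKM in Col-0 (SD, n = 3 each), and GRXC1, a glutaredoxin, had 23.6 ± 2.26 RPKM in the mutant and 58.5 ± 2.39 RPKM in Col-0 (SD, n = 3 each). AT5G63010, between FOLB2 and AT5G63020, was higher (log2 fold change 0.56, limma adjusted p = 0.0063). Beside AT1G72890, the TIR-only gene AT1G72900 was lower (1.2 ± 0.360 RPKM in the mutant and 6.76 ± 0.366 RPKM in Col-0, SD, n = 3 each) and AT1G72940 higher (16.8 ± 2.65 RPKM in the mutant and 9.17 ± 0.852 RPKM in Col-0, SD, n = 3 each).

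**Figure D4:**
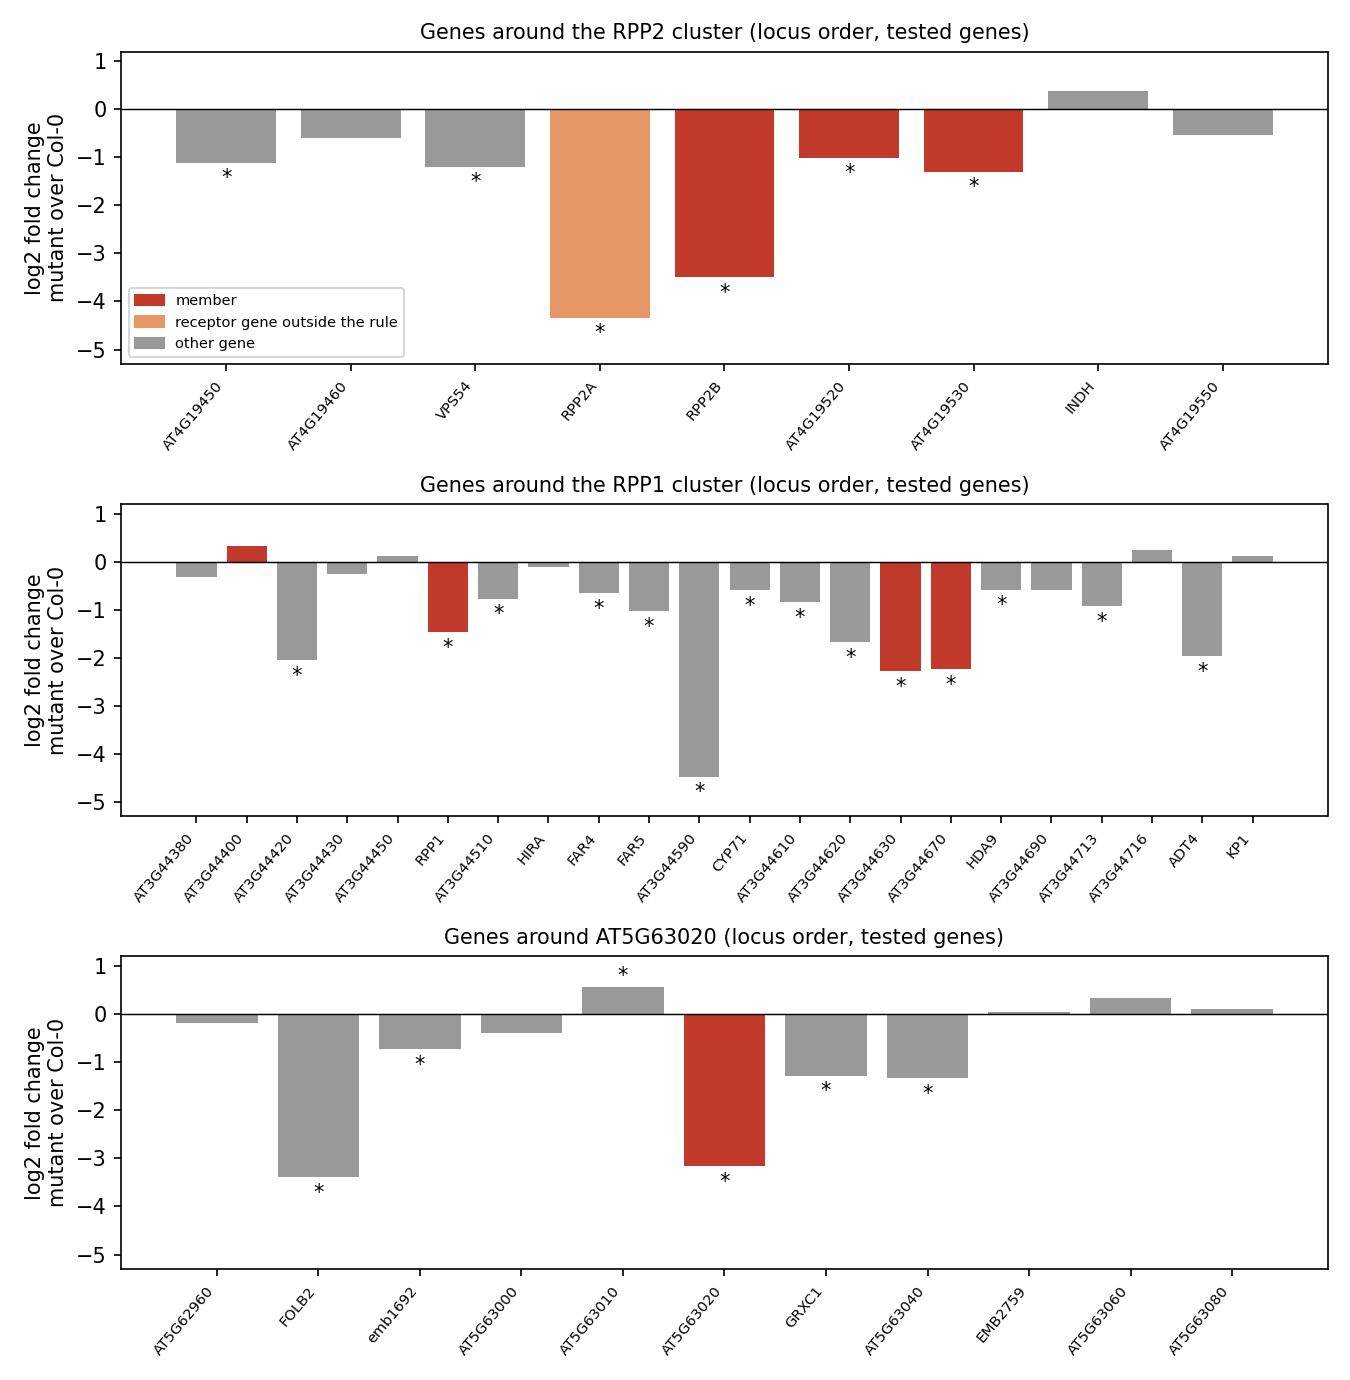
Log2 fold change, mutant over Col-0, on log2(RPKM + 1) for tested genes in locus order around the RPP2 cluster (top), the RPP1 cluster (middle) and AT5G63020 (bottom), with asterisks on called genes. Members (red) stand among other genes (grey) that were also called lower, such as AT3G44590 at -4.47.

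**Figure D5:**
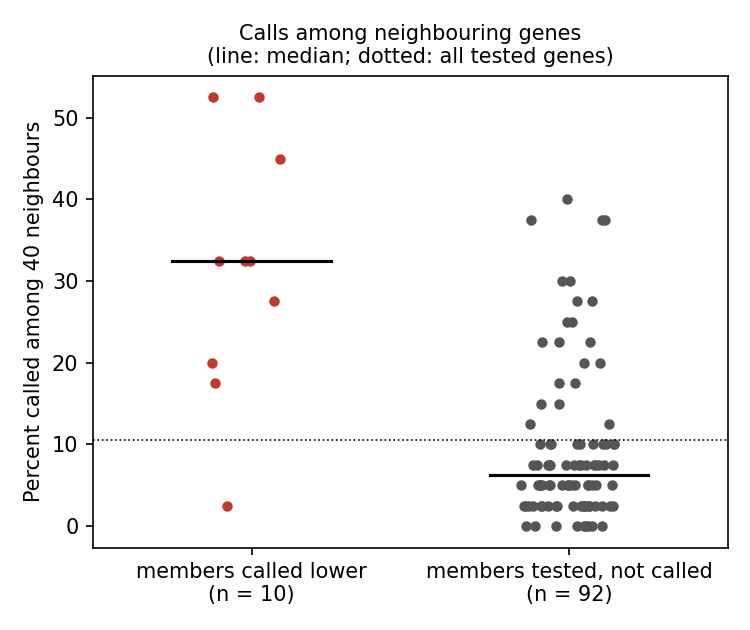
Percent of 40 neighbouring tested genes that were called, for 10 members called lower (left) and 92 tested members not called (right), with a line at each median and a dotted line at 10.6%, the share over all tested genes. The medians are 32.5% and 6.25%, and the ranges overlap.

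Receptor genes outside the description wording behaved in more than 1 way. In the RPP4 and RPP5 cluster of chromosome 4, whose genes are described by the name of SNC1, RPP4 had 0.996, 1.07 and 0.736 RPKM in the mutant, against 11.9, 9.55 and 17.2 RPKM in Col-0 (log2 fold change -2.81, limma adjusted p = 1.22e-05). SNC1, known for its gain-of-function autoimmune mutant, had 7.41, 7.63 and 6.53 RPKM in the mutant, against 33.8, 31.9 and 40.5 RPKM in Col-0 (log2 fold change -2.15, limma adjusted p = 2e-06). RPP5 had 0.741, 0.589 and 0.645 RPKM in the mutant, against 14.97, 13.6 and 18.3 RPKM in Col-0, and was lost. AT4G16900 in the same cluster went the other way without a call, with 9.13 ± 0.657 RPKM in the mutant and 6.79 ± 1.17 RPKM in Col-0 (SD, n = 3 each). How far the genes of this cluster share sequence was not examined, so their values may be uncertain as to copy. LOV1, a CC gene that confers susceptibility to the fungal toxin victorin, was called higher, with 4.82, 4.93 and 4.96 RPKM in the mutant, against 2.58, 2.44 and 3.59 RPKM in Col-0 (log2 fold change 0.62, limma adjusted p = 0.0221). Taking the loci that RefSeq names as TIR-NBS, CC-NBS-LRR or NB-ARC classes gave 151 loci, 119 of them shared with the members. Of the 151, 96 were tested, 15 were called lower (15.6%, against 6.65% of all tested genes) and 1 higher (1.04%, against 3.9%). The 32 of these loci that are not members had 21 tested, 5 of them lower (23.8%). Those 5 include RPP4, SNC1 and RPP5 of 1 cluster, so these shares do not count independent genes.

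Of 20 tested genes for the partners and chaperones through which NLRs act, 4 were called higher and 0 lower. That is 20% higher, against 3.9% of all tested genes, and the difference between these shares was not tested. RIN4, the membrane protein guarded by RPM1 and RPS2, had 42.7, 45.6 and 37.8 RPKM in the mutant, against 24.5, 27.2 and 26.5 RPKM in Col-0 (log2 fold change 0.66, limma adjusted p = 0.00142). SGT1A, a co-chaperone of NLR folding, had 14.6 ± 0.519 RPKM in the mutant and 10.6 ± 0.366 RPKM in Col-0 (SD, n = 3 each, limma adjusted p = 0.0154). The chaperones HSP90.1 and HSP90.3 were higher by 0.63 and 0.38 on the log2 scale (limma adjusted p = 0.0442 and 0.0277). HSP90.2, a close copy of HSP90.3 with which it may share reads, was not called, with 111.1 ± 1.07 RPKM in the mutant and 128.3 ± 7.61 RPKM in Col-0 (SD, n = 3 each). EDS1, the hub of TIR signalling, had 7.85 ± 0.740 RPKM in the mutant and 8.08 ± 0.351 RPKM in Col-0 (SD, n = 3 each), and PAD4, SAG101, RAR1 and SGT1B were not called. The median log2 fold change, rounded to 2 decimals, was -0.01 for the list and -0.01 for all tested genes.

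In the other lists, at most 1 gene each was called, against 10.6% of all tested genes called in either direction, with median log2 fold changes of -0.03 (salicylate), -0.06 (cell-surface receptors) and 0.02 (small RNA). Of 8 tested salicylate pathway genes (16 listed), 1 was called, the salicylate receptor NPR4, with 7.33 ± 0.800 RPKM in the mutant and 10.4 ± 0.269 RPKM in Col-0 (SD, n = 3 each, limma adjusted p = 0.0254). PR1 and PR2, pathogenesis-related genes that report salicylate defence, were too low to test, and Col-0 replicate 2 stood apart, at 2.27 RPKM for PR1 and 4.55 RPKM for PR2. The other libraries reached at most 0.190 RPKM for PR1 and 0.541 RPKM for PR2. Of 14 tested cell-surface immune receptors and their kinases (16 listed), 1 was called, PEPR1, the receptor of Pep peptides, with 7.94 ± 0.193 RPKM in the mutant and 10.8 ± 0.444 RPKM in Col-0 (SD, n = 3 each, limma adjusted p = 0.0268). FLS2, the flagellin receptor, was not called, and EFR, the receptor of EF-Tu, was too low to test. Of 5 genes of the secondary small RNA pathway, which makes small RNAs from NLR transcripts, 0 were called by limma and 0 had an unadjusted p under 0.05, with AGO1 at 82.4 ± 3.51 RPKM in the mutant and 78.1 ± 5.49 RPKM in Col-0 (SD, n = 3 each).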

How the data were processed

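Each of the 6 libraries had 1 file of RPKM values, deposited by the authors, for 33602 loci with a UniProt description. Per the labels' protocols, Trizol RNA was treated with DNase I and made into directional libraries, and per the submitters' processing notes TopHat2, TopHat, edgeR and the TAIR10 build were used, with no versions or roles. The sources used here do not say how reads were counted, whether by strand, or what was done with multiply matching reads, so overlapping and antisense genes cannot be told apart.

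The test was limma 3.58.1 (R 4.3.3) on log2(RPKM + 1), with the trend option of eBayes and no term but genotype, over the 19710 genes that reached 1 RPKM in 3 or more libraries. A gene low in the mutant could pass this filter through its Col-0 libraries alone. Several genes named above, such as RPP4, RPP5, AT3G44630 and AT3G04210, were under 1 RPKM in most or all mutant libraries. The test was also run on simulated counts with a single fixed spread and with changes placed only in genes well above the filter. That run therefore says nothing about members near the filter. Whole reads were recovered from the RPKM values for 100% of genes above 0, to within 0.001 reads, from the annotated exon length where it made all 6 values whole (3736 genes) and otherwise from the smallest length that did (21403 genes), so recovered reads of the second kind are too few where true reads share a factor. They served limma-voom as an alternative chosen after seeing the data. No pair of replicates agreed within counting noise (chi-square per degree of freedom 5.967 to 21.522). Gene names, classes, positions and sequences come from RefSeq TAIR10.1, and the files carry no coordinates. Genes named by rule are every member lost or gained, the 10 largest called changes each way, the 5 highest means and 30 well-studied receptors. Also by rule are up to 4 called genes per list and the members nearest the limit for lost. Other genes named, such as the neighbours of called members, were picked by no such rule. Neighbours with little change are mostly left unnamed. The members and lists were chosen with earlier results of these data known. Some items are not reported here.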

Additional observations from a re-analysis of the deposited data

How the results depend on the processing

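Over the pseudocounts 0.1 and 5, no filter, a filter at 5 RPKM, median centring, the replicate block and limma-voom, between 7 and 12 members were called lower. The filter at 5 RPKM tested 45 members, and its 7 calls were all among the 10. The members called higher were 0 under all of these but limma-voom on recovered reads, which gave 1 (AT5G58120) and newly called ADR1 and AT3G03855 lower. Leaving out 1 library at a time gave 9 to 11 members lower and 0 to 1 higher, the 1 being AT5G45500 without Col-0 replicate 2 and AT1G63880 without Col-0 replicate 3. Of the 10 members called lower, 9 kept their call under every setting that tested them, and AT4G36150 lost it in 8 of 12 settings (adjusted p up to 0.134), among them median centring and the replicate block. With the replicate block 9 members were called lower and 2114 genes overall. Same-numbered libraries of the genotypes correlated by -0.03, 0.15 and 0.04 after removal of group means. Mutant replicates 2 and 3 correlated most with their same-numbered Col-0 library, and mutant replicate 1 with Col-0 replicate 3 (0.11). These low correlations do not settle whether the numbers pair samples, and the main test did not pair them. Against 2080 genes called with all libraries, 1340 were called without mutant replicate 1, 1361 without mutant replicate 2 and 1361 without Col-0 replicate 1.

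Members lost were 2 or 3 when a library was left out and 0 were gained. A limit of 5% in place of 10% gave 1 lost, a limit of 20% gave 3, and presence at 0.5 or 2 RPKM gave 3 and 2. Dropping the ENHANCED DISEASE RESISTANCE 2 genes changed none of the 4 counts. Members by RefSeq NBS classes gave 4 lost, 15 lower and 1 higher. Of these 151 loci, 119 are members too, and the 32 that are not gave 2 lost, 5 lower and 1 higher. Requiring NBS in the description left no member, so that alternative gave no value. Both member rules and limma-voom were chosen after seeing the data. The cause of these differences was not tested. At these depths 1 RPKM stands for few reads in a short gene, which limits the low members.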
